A study of Homo sapiens with 12 samples.

Results

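The E2F transcription factors and the retinoblastoma pocket proteins were measured in the cytoplasmic RNA of U2OS cells, a human osteosarcoma line. The family held 10 genes: the activator members E2F1, E2F2 and E2F3, the repressor members E2F4, E2F5 and E2F6, the atypical members E2F7 and E2F8, and the pocket protein genes RB1 and RBL1. They were a fixed list of genes, and the accessions of 15 of the 34127 probes on the array led to them in RefSeq. RBL2, also a pocket protein gene, was not in that list and is read with the partners below. All 15 probes lay well above background on all 12 arrays, and the 10 genes stood among 20821 genes tested of 27522 gene names.

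The study asked how the loss of DBP5, GLE1 or IPPK changes which mRNAs reach the cytoplasm. DBP5 is an RNA helicase at the cytoplasmic face of the nuclear pore, GLE1 is its activator there, and IPPK is the kinase that makes inositol hexakisphosphate, a cofactor of that step. U2OS cells received 20 nM of control siRNA, or of siRNA against DBP5, GLE1 or IPPK, and were cultured for 48 h. The cytoplasmic fraction was taken with a detergent lysis buffer, and its RNA was hybridised to 3 one-colour Agilent arrays for each siRNA, in independent experiments.

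E2F proteins bind DNA in front of genes for DNA replication and the cell cycle, mostly as a pair with a DP protein. In resting cells and early G1 the pocket proteins hold E2F in check, and cyclin-dependent kinases release it by phosphorylating them, after which the activator members drive entry into S phase. E2F4 and E2F5 work mainly as repressors with the pocket proteins, E2F6 represses with a polycomb complex and without a pocket protein, and E2F7 and E2F8 repress without a DP partner. Several members are themselves E2F targets.

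The promoters show where family members carry the E2F core themselves. For 8 of the 10 genes an entry was read from the RefSeq promoter table (GRCh38.p14), which spans 250 bases before to 50 bases after a start site. The entry for RB1 lay 172699 bases from the gene's first start site and was set aside. The core was searched as TTTCCCGC, TTTGGCGC, TTTCGCGC or TTTGCCGC on both strands. The 80 bases before the start site are shown for the 4 members that held a core, with the core in capitals, and for E2F7, which held none and rose after every knock-down.
E2F1: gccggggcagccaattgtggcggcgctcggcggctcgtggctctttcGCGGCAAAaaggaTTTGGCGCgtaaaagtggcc
E2F2: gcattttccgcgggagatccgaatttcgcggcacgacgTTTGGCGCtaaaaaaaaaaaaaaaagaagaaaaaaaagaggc
E2F3: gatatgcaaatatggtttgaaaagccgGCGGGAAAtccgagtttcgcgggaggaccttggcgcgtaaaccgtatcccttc
RBL1: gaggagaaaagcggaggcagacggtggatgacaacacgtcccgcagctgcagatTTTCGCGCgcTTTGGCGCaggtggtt
E2F7: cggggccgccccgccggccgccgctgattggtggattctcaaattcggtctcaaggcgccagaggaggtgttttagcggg

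These windows lie at chr20:33686386-33686465 on the minus strand for E2F1, chr1:23531234-23531313 on the minus strand for E2F2, chr6:20401799-20401878 on the plus strand for E2F3, chr20:37095998-37096077 on the minus strand for RBL1 and chr12:77065570-77065649 on the minus strand for E2F7. The capitals on the gene's strand read TTTGGCGC in E2F1 and E2F2, and TTTCGCGC followed by TTTGGCGC in RBL1. The other capitals in E2F1 and the capitals in E2F3 are TTTGCCGC and TTTCCCGC on the opposite strand. E2F4 and E2F6 held none of the 4 cores in their entries, nor did a second entry of E2F3, 1735 bases downstream. Unlike E2F7, E2F4 and E2F6 fell after every knock-down, and E2F3, which holds a core, was not called against control on its brightest probe. Whether a core goes with the direction of a member was not tested. A core was found for 4 of the 8 member genes read, RB1 counted, for 764 of the 12857 tested genes with an entry (5.94%), and in 1164 of all 35116 entries (3.31%). A match is only a match of letters, and no binding was measured.

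**Figure D1:**
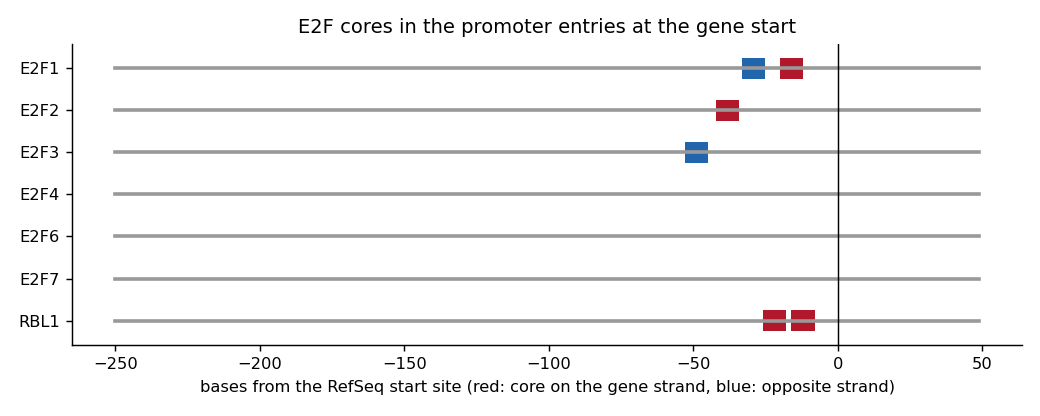
Position of the E2F core in 7 promoter entries at the gene start, in bases from the RefSeq start site (0), from 250 bases before to 50 bases after it. Red blocks are cores on the gene's strand and blue blocks cores on the opposite strand. E2F1 and RBL1 have 2 cores each, E2F2 and E2F3 have 1, and E2F4, E2F6 and E2F7 have none.

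The targeted genes were lowest where the labels place their siRNA. DDX19B, which encodes DBP5, was at 0.0643-fold control after DBP5 siRNA, GLE1 at 0.102-fold after GLE1 siRNA and IPPK at 0.186-fold after IPPK siRNA. The size of these falls depended on the background correction: with normexp the log2 differences were -3.23, -1.89 and -1.91 in place of -3.96, -3.30 and -2.42, and with the authors' processed values -3.25, -1.85 and -1.87. A second, dimmer probe of IPPK was at 0.497-fold after IPPK siRNA. The knock-downs also lowered targets of each other. IPPK was at 0.42-fold control after DBP5 siRNA, and DDX19B at 0.49-fold after GLE1 siRNA and 0.874-fold after IPPK siRNA (adjusted p from 3.97e-08 to 0.00843 in limma over probes). GLE1 was at 0.717-fold after IPPK siRNA (adjusted p = 0.0198) and 0.783-fold after DBP5 siRNA (adjusted p = 0.0718). The probes of IPPK disagreed after GLE1 siRNA, at 0.821-fold for the brightest and 2.08-fold for the other. Between 70.9% and 77.7% of probes lay well above background on an array, and the IPPK arrays had the lowest range, 70.9% to 73.8%. Of 9 osteoblast lineage markers, 7 were detected on all 12 arrays and IBSP on none. Of 5 epithelial markers 3 were detected on all 12 arrays and KRT5 on none. CDH1, an epithelial cadherin, was detected on 0 of 3 control arrays, on 3 of 3 arrays after DBP5 and after GLE1 siRNA and on 2 of 3 after IPPK siRNA. The keratin KRT19 was at 0.86, 1.79 and 0.701-fold control after DBP5, GLE1 and IPPK siRNA. The adhesion protein EPCAM was at 0.657, 0.735 and 0.528-fold (adjusted p = 0.043, 0.115 and 0.0054 in limma over probes), and the splicing factor ESRP1 at 0.93, 0.959 and 1.19-fold. The summed epithelial level on the log2 scale was 9.69 to 9.92 with control siRNA, 9.23 to 9.34 with DBP5, 9.62 to 9.92 with GLE1 and 8.63 to 9.32 with IPPK siRNA, so it was lower after DBP5 and IPPK siRNA, as EPCAM was, while CDH1 was detected on more arrays. The summed osteoblast level was 12.91 to 13.02 with control siRNA, 12.63 to 12.80 with DBP5, 12.78 to 12.97 with GLE1 and 12.22 to 12.26 with IPPK siRNA. The part of these markers in the member values was not tested. Of 3 nuclear-retained RNAs with a probe, KCNQ1OT1 rose to 1.56, 1.8 and 1.16-fold control after DBP5, GLE1 and IPPK siRNA, and MALAT1 was at 0.692, 0.798 and 0.474-fold, of which the IPPK value passed the test (adjusted p = 0.0035) and the others did not (adjusted p = 0.0958 and 0.285). MIAT, the remaining one, was detected on 3 of 3 control and DBP5 arrays and on 0 of 3 GLE1 and IPPK arrays. The summed level of these RNAs on the log2 scale was 12.43 to 12.52 with control siRNA, 12.93 to 13.18 with DBP5, 13.26 to 13.28 with GLE1 and 12.58 to 12.71 with IPPK siRNA. Whether nuclear RNA in the fraction had a part in the member values was not tested. Fewer cells in a phase of the cycle, less RNA of a gene per cell, and less export of it from the nucleus cannot be told apart in a cytoplasmic RNA sample.

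Most members of the family changed after each knock-down, and direction split the repressors and the atypical members, while the called activators and pocket protein genes all fell. The value compared is the normalized log2 intensity of the brightest probe of a gene, tested in limma over all 12 arrays with Benjamini-Hochberg adjustment over all 20821 genes and called at an adjusted p under 0.05. After DBP5 siRNA 7 members fell and 2 rose, which is 9 of 10, while 54.3% of all genes were called. After GLE1 siRNA 6 fell and 2 rose, beside 62% of all genes called, and after IPPK siRNA 6 fell and 2 rose, beside 55.4%. By direction, 27.5%, 31.5% and 28% of all genes fell, and 26.7%, 30.6% and 27.3% rose. E2F5 and E2F7 were the 2 members that rose, in each of the 3 comparisons. The median log2 difference of the 10 members was -0.36, -0.91 and -0.50 after DBP5, GLE1 and IPPK siRNA, beside -0.02, 0.01 and -0.03 for all genes. With a limit of at least 1.5-fold, 4, 6 and 5 members were lower (beside 12.6%, 18.2% and 13.2% of all genes), and E2F5 and E2F7 were higher in every knock-down, beside 12.9%, 16.3% and 13.6% of all genes. E2F5 after DBP5 siRNA was under this limit with normexp (1.35-fold) and with the authors' processed values (1.38-fold), and RB1 after IPPK siRNA without the second control array (0.672-fold). The arrays of the knock-down and of the control did not overlap for 9, 8 and 8 members, beside 59.2%, 68.5% and 63.7% of all genes. The 3 comparisons share the same control arrays, so they are not independent of each other. Each slide carried 1 array of each siRNA. In 27 of the 30 comparisons of a member with control the difference had the same direction on all 3 slides, the exceptions being E2F3 after DBP5 and GLE1 siRNA and RBL1 after IPPK siRNA.

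**Figure D2:**
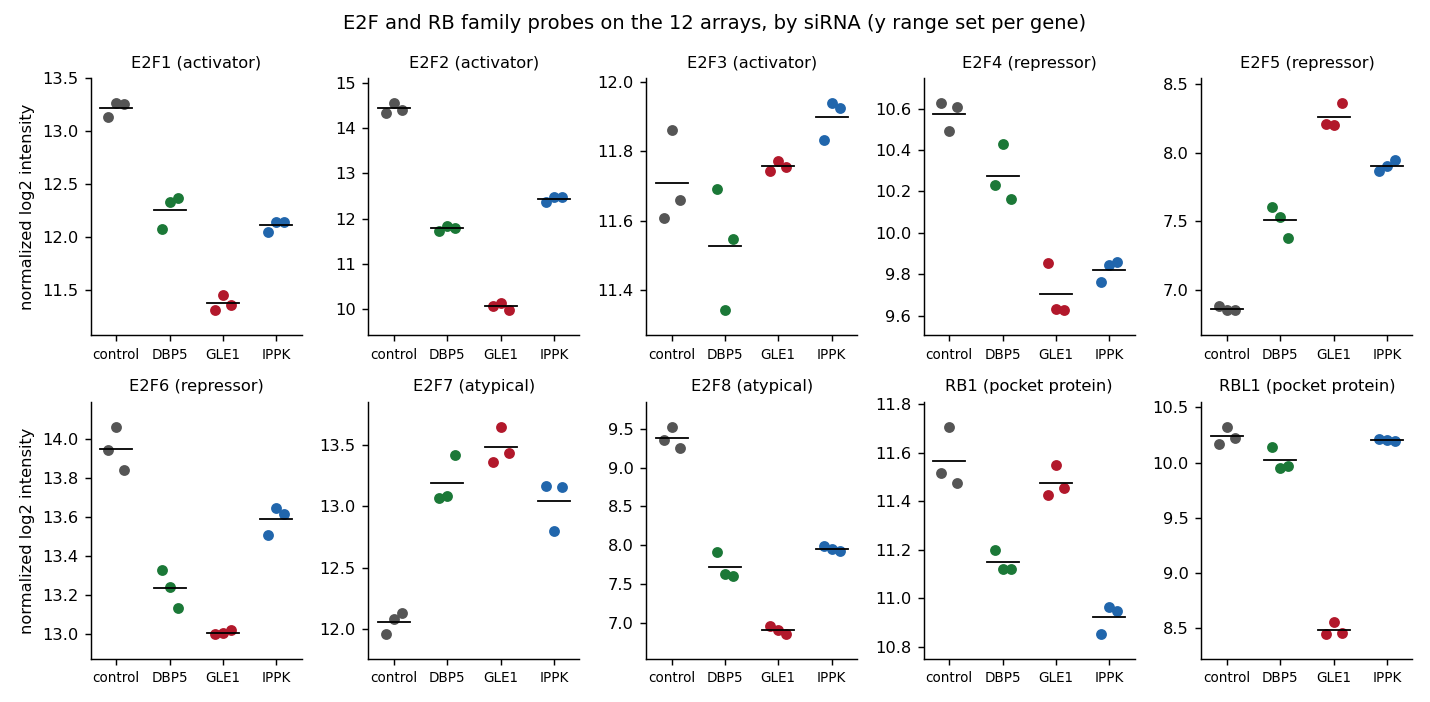
Normalized log2 intensity of the brightest probe of each of the 10 members on the 12 arrays, with 3 points per siRNA and a line at their mean. Each panel has its own y range, so levels are not comparable between genes. E2F1, E2F2 and E2F8 are below all control points after every knock-down, E2F5 and E2F7 above them, and E2F3 overlaps the control in every case.

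Among the activators, E2F1 and E2F2 fell after every knock-down, most after GLE1 siRNA, while E2F3 was not called against control. E2F2 drives S phase genes and is held by RB1. Its normalized log2 intensity was 14.34, 14.54 and 14.40 with control siRNA, 11.74, 11.84 and 11.79 with DBP5 siRNA, 10.08, 10.14 and 9.98 with GLE1 siRNA, and 12.36, 12.48 and 12.49 with IPPK siRNA. The 4 groups of arrays did not overlap each other, and the order from high to low was control, IPPK, DBP5 and GLE1. Against control the difference was -2.64 ± 0.07 (SE) after DBP5, -4.36 ± 0.07 (SE) after GLE1 and -1.98 ± 0.07 (SE) after IPPK siRNA on the log2 scale, with adjusted p from 9.13e-11 to 6.21e-09 in limma. After GLE1 siRNA this left 0.0487 of the control intensity (95% interval 0.0439 to 0.0541), or 0.304 of the level after DBP5 siRNA (adjusted p = 1.8e-08) and 0.193 of that after IPPK siRNA (adjusted p = 1.69e-09).

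E2F1 is the first described member of the family and the best known partner of RB1. It gave 13.14, 13.27 and 13.26 with control siRNA, 12.08, 12.33 and 12.37 with DBP5 siRNA, 11.31, 11.45 and 11.36 with GLE1 siRNA, and 12.05, 12.14 and 12.14 with IPPK siRNA. All knock-down arrays lay below all control arrays, and the GLE1 arrays lay below those of DBP5 and IPPK. The level was 0.513-fold control (95% interval 0.453 to 0.581, adjusted p = 3.03e-06) after DBP5 siRNA, 0.278-fold control (95% interval 0.246 to 0.315, adjusted p = 1.51e-08) after GLE1 siRNA and 0.464-fold control (95% interval 0.41 to 0.525, adjusted p = 9.62e-07) after IPPK siRNA. DBP5 and IPPK siRNA could not be separated from each other here: their ratio was 1.11 with a 95% interval of 0.977 to 1.25 (adjusted p = 0.167 in limma). The probe for E2F1 is printed 10 times on the array, and the SD of those spots on the log2 scale was between 0.0615 and 0.123, which is the spread within an array and not between samples.

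E2F3, the remaining activator, behaved otherwise. Its intensity was 11.61, 11.86 and 11.66 with control siRNA, 11.69, 11.34 and 11.55 with DBP5 siRNA, 11.74, 11.77 and 11.75 with GLE1 siRNA, and 11.83, 11.94 and 11.93 with IPPK siRNA. The arrays of each knock-down overlapped the control or lay inside its range, and the control arrays alone spanned 11.61 to 11.86. The level was 0.88-fold control (95% interval 0.765 to 1.01, adjusted p = 0.117) after DBP5 siRNA, 1.03-fold control (95% interval 0.898 to 1.19, adjusted p = 0.693) after GLE1 siRNA and 1.14-fold control (95% interval 0.991 to 1.31, adjusted p = 0.104) after IPPK siRNA. The intervals reach no lower than 0.765 and no higher than 1.31, so falls as large as those of E2F1 or E2F2 lie outside them. Some settings did call E2F3 against control in limma. After DBP5 siRNA these were its second probe (adjusted p = 0.00238), the mean of its probes (0.00473) and the fit without the first DBP5 array (0.027). After IPPK siRNA they were normexp (0.04), the authors' processed values (0.0272) and the fit without the second control array (0.0344). Between knock-downs, DBP5 was 0.772 of IPPK (adjusted p = 0.00615), a call that the methods' t-test, which pairs the arrays of a slide, did not give (0.189). GLE1 over DBP5 was 1.17 and just missed the threshold (adjusted p = 0.0532). It was called with normexp (0.0218), with the authors' processed values (0.0183), with the filter on all 12 arrays (0.0452), with the mean of its probes (0.00201), on its second probe (0.00136) and without the first DBP5 array (0.0126).

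Among the repressors, E2F4 and E2F6 fell after every knock-down while E2F5 rose. E2F4 is the main E2F of resting cells and binds DNA with the pocket proteins. It gave 10.63, 10.49 and 10.61 with control siRNA, 10.23, 10.43 and 10.16 with DBP5 siRNA, 9.85, 9.63 and 9.63 with GLE1 siRNA, and 9.76, 9.84 and 9.86 with IPPK siRNA. The control arrays were the highest, the DBP5 arrays lay just below them, and the GLE1 and IPPK arrays overlapped at the bottom. The level was 0.813-fold control (95% interval 0.713 to 0.926, adjusted p = 0.0118) after DBP5 siRNA, 0.547-fold control (95% interval 0.48 to 0.623, adjusted p = 5.94e-06) after GLE1 siRNA and 0.593-fold control (95% interval 0.52 to 0.675, adjusted p = 2.57e-05) after IPPK siRNA. GLE1 over IPPK was 0.922 (95% interval 0.809 to 1.05, adjusted p = 0.262), and both were below DBP5 (adjusted p = 0.000193 and 0.00118). The call after DBP5 siRNA was lost with the authors' processed values (adjusted p = 0.0502) and with the methods' t-test (0.214). That t-test also did not call E2F4 for GLE1 against DBP5 (adjusted p = 0.0966) or for DBP5 against IPPK (0.0874).

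E2F5, the closest relative of E2F4, moved the other way. It gave 6.88, 6.85 and 6.85 with control siRNA, 7.61, 7.53 and 7.38 with DBP5 siRNA, 8.21, 8.21 and 8.36 with GLE1 siRNA, and 7.87, 7.90 and 7.95 with IPPK siRNA. The 4 groups did not overlap, and GLE1 was highest and control lowest. The level was 1.57-fold control (95% interval 1.41 to 1.73, adjusted p = 1.31e-05) after DBP5 siRNA, 2.64-fold control (95% interval 2.38 to 2.92, adjusted p = 2.57e-08) after GLE1 siRNA and 2.07-fold control (95% interval 1.87 to 2.29, adjusted p = 3.51e-07) after IPPK siRNA. All pairs of knock-downs differed, with adjusted p from 4.14e-06 to 0.000885 in limma. The methods' t-test called GLE1 against IPPK alone of these pairs, with an adjusted p of 0.0681 for GLE1 against DBP5 and 0.109 for DBP5 against IPPK. E2F5 has 1 probe, and the gain could not be checked on another. Its intensity was low, and the size of the gain depended on the processing. Over the settings varied, its log2 difference from control was as small as 0.43, 0.94 and 0.71 (DBP5, GLE1 and IPPK siRNA). The main values were 0.65, 1.40 and 1.05. The 95% intervals do not cover the choice of setting.

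E2F6 lacks the domain that binds pocket proteins and represses with polycomb proteins. Its brightest probe gave 13.94, 14.06 and 13.84 with control siRNA, 13.33, 13.24 and 13.13 with DBP5 siRNA, 13.00, 13.00 and 13.02 with GLE1 siRNA, and 13.51, 13.64 and 13.62 with IPPK siRNA. On this probe control was highest and GLE1 lowest, with no overlap between any groups. The level was 0.609-fold control (95% interval 0.547 to 0.679, adjusted p = 1e-05) after DBP5 siRNA, 0.521-fold control (95% interval 0.467 to 0.58, adjusted p = 7.69e-07) after GLE1 siRNA and 0.779-fold control (95% interval 0.699 to 0.868, adjusted p = 0.00128) after IPPK siRNA. The call after IPPK siRNA was lost with the methods' t-test (adjusted p = 0.0728). DBP5 and IPPK were called different on this probe (adjusted p = 0.00178) and not on the others (adjusted p = 0.117 and 0.283). The call of GLE1 below DBP5 (adjusted p = 0.0186) was lost on the dimmest probe (0.149), with the authors' processed values (0.0841) and with the methods' t-test (0.132).

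The atypical members parted. E2F7 and E2F8 both carry a pair of DNA-binding domains and repress E2F1 and other cell cycle genes, yet E2F8 fell and E2F7 rose after every knock-down. E2F8 gave 9.36, 9.52 and 9.25 with control siRNA, 7.92, 7.62 and 7.60 with DBP5 siRNA, 6.96, 6.90 and 6.86 with GLE1 siRNA, and 7.99, 7.95 and 7.92 with IPPK siRNA. Every knock-down array lay at least 1 log2 unit below the lowest control array, and the GLE1 arrays were the lowest. The level was 0.316-fold control (95% interval 0.274 to 0.364, adjusted p = 1.64e-07) after DBP5 siRNA, 0.18-fold control (95% interval 0.157 to 0.208, adjusted p = 5.01e-09) after GLE1 siRNA and 0.373-fold control (95% interval 0.324 to 0.43, adjusted p = 4.05e-07) after IPPK siRNA. GLE1 was 0.571 of DBP5 and 0.483 of IPPK (adjusted p = 2.77e-05 and 3.16e-06), while DBP5 over IPPK was 0.847 (95% interval 0.735 to 0.975, adjusted p = 0.0514). That last pair sat at the threshold and was called with the replicate number as a block (adjusted p = 0.0325), with the 75th percentile or quantile normalization, with the filter on all 12 arrays, and without the first DBP5 array (adjusted p = 0.00468). Over the settings varied, the log2 difference of E2F8 from control shrank to as little as -1.35, -1.90 and -1.22 (DBP5, GLE1 and IPPK siRNA). The main values were -1.66, -2.47 and -1.42, and their 95% intervals do not cover the choice of setting.

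E2F7 gave 11.96, 12.08 and 12.13 with control siRNA, 13.06, 13.09 and 13.41 with DBP5 siRNA, 13.36, 13.65 and 13.43 with GLE1 siRNA, and 13.17, 12.80 and 13.16 with IPPK siRNA. All knock-down arrays lay above all control arrays, and the knock-downs overlapped each other in part. The level was 2.19-fold control (95% interval 1.8 to 2.67, adjusted p = 2.74e-05) after DBP5 siRNA, 2.68-fold control (95% interval 2.2 to 3.26, adjusted p = 3.26e-06) after GLE1 siRNA and 1.98-fold control (95% interval 1.63 to 2.41, adjusted p = 7.5e-05) after IPPK siRNA. Of the pairs of knock-downs, GLE1 was above IPPK (ratio 1.35, adjusted p = 0.0126), a call that was lost without the second GLE1 array (adjusted p = 0.0529), with the methods' t-test (0.225) and on its other probe (0.665). That probe called DBP5 above IPPK instead (ratio 1.44, adjusted p = 5.7e-05 in limma over probes). The methods' t-test did not call the rise after IPPK siRNA (adjusted p = 0.0536).

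The pocket protein genes did not move together. RB1, the retinoblastoma gene, gave 11.52, 11.71 and 11.48 with control siRNA, 11.20, 11.12 and 11.12 with DBP5 siRNA, 11.43, 11.55 and 11.46 with GLE1 siRNA, and 10.85, 10.97 and 10.95 with IPPK siRNA. The IPPK arrays were lowest, the DBP5 arrays lay between, and the GLE1 arrays overlapped the control. The level was 0.748-fold control (95% interval 0.674 to 0.831, adjusted p = 0.000381) after DBP5 siRNA and 0.64-fold control (95% interval 0.576 to 0.711, adjusted p = 1.64e-05) after IPPK siRNA, and it was 0.94-fold control (95% interval 0.846 to 1.04, adjusted p = 0.286) after GLE1 siRNA, where no call was made. RB1 after GLE1 siRNA was 1.26 of the level after DBP5 siRNA and 1.47 of that after IPPK siRNA (adjusted p = 0.00191 and 4.14e-05 in limma). The methods' t-test did not call RB1 after DBP5 siRNA (adjusted p = 0.0908) or for GLE1 against DBP5 (0.0786). The SD of its 9 or 10 usable spots per array was between 0.0271 and 0.184 on the log2 scale.

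RBL1 encodes p107, a pocket protein that pairs mainly with E2F4 and E2F5 and that E2F itself induces. It gave 10.17, 10.32 and 10.22 with control siRNA, 10.14, 9.95 and 9.97 with DBP5 siRNA, 8.45, 8.55 and 8.46 with GLE1 siRNA, and 10.21, 10.20 and 10.20 with IPPK siRNA. The GLE1 arrays stood apart by more than 1 log2 unit, and all others lay within 9.95 to 10.32. The level was 0.297-fold control (95% interval 0.269 to 0.328, adjusted p = 4.35e-09) after GLE1 siRNA, 0.861-fold control (95% interval 0.781 to 0.95, adjusted p = 0.0146) after DBP5 siRNA and 0.975-fold control (95% interval 0.884 to 1.08, adjusted p = 0.671) after IPPK siRNA, where no call was made. The GLE1 level was 0.345 of that after DBP5 siRNA and 0.304 of that after IPPK siRNA (adjusted p = 2.27e-08 and 7.9e-09). The small DBP5 difference was not stable: it was lost without the second control array or without DBP5 array 2 or 3 (adjusted p from 0.052 to 0.0575), with normexp background correction (0.114), with the authors' processed values (0.0939) and with the 6 arrays alone (0.0652). The methods' t-test did not call it either (adjusted p = 0.251).

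**Figure D3:**
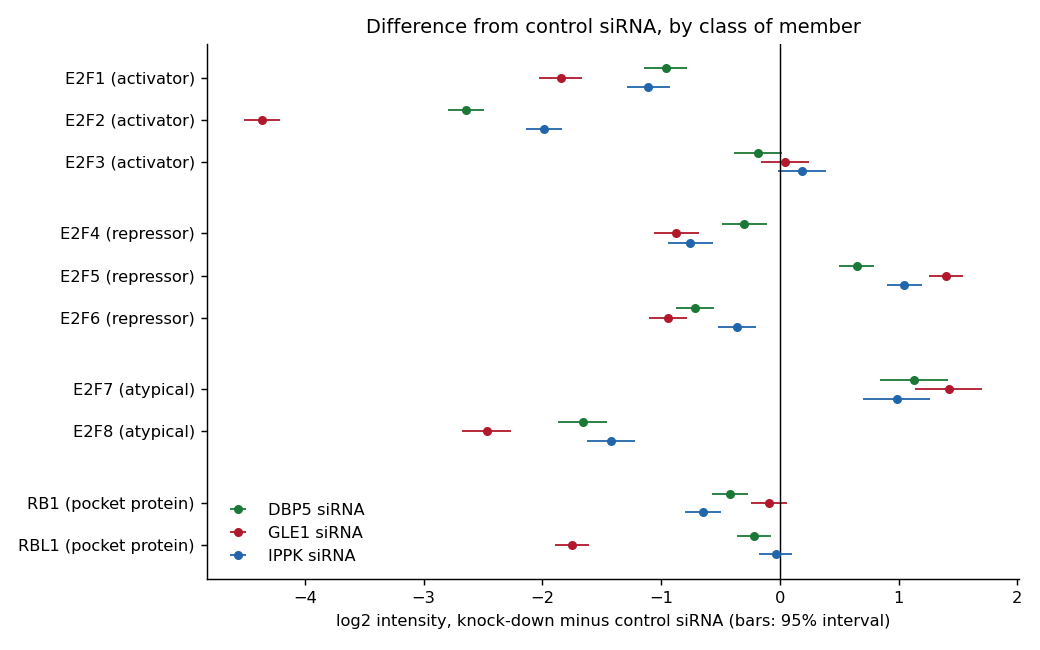
Log2 difference from control siRNA for the 10 members, grouped by class, with 1 point per knock-down (green DBP5, red GLE1, blue IPPK) and its 95% interval from limma. E2F2 after GLE1 siRNA lies farthest from 0, at -4.36, E2F5 and E2F7 lie to the right of 0 in each knock-down, and the intervals of E2F3 include 0.

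Direct comparisons between knock-downs called 8 members for GLE1 against DBP5, 8 for GLE1 against IPPK and 7 for DBP5 against IPPK. GLE1 was below DBP5 for 6 members and above it for 2 (54.6% of all genes called, 28% lower and 26.5% higher), below IPPK for 5 and above it for 3 (60.2% of all genes called, 30.7% lower and 29.4% higher). DBP5 was below IPPK for 5 members and above it for 2 (48.9% of all genes called, 25.1% lower and 23.8% higher). E2F1, E2F2, E2F6, E2F8 and RBL1 were lower with GLE1 siRNA than with both others, and E2F5 and RB1 were higher than with both. For GLE1 against DBP5 4 members were at least 1.5-fold lower and 1 higher, beside 13.9% and 11.9% of all genes. Of these, E2F5 and E2F8 were under the limit with normexp (1.43 and 0.679 of the DBP5 level) and with the authors' processed values (1.41 and 0.692). E2F4 was past it with the 75th percentile (0.664) and without DBP5 array 1 (0.662), DBP5 array 3 (0.647) or GLE1 array 1 (0.639). For GLE1 against IPPK 4 were lower and 0 higher, beside 15.9% and 14.2%. E2F6 was past the limit here with the 75th percentile (0.660), with normexp (0.652) and without GLE1 array 3 (0.665) or IPPK array 1 (0.649). Only E2F2 differed by at least 1.5-fold between DBP5 and IPPK siRNA, where it was 0.634 of the IPPK level and 9.72% of all genes were lower by that much and 10.1% higher. The arrays of the paired knock-downs did not overlap for 9, 9 and 8 members in GLE1 against DBP5, GLE1 against IPPK and DBP5 against IPPK, beside 60.6%, 67.9% and 56.2% of all genes. Each pair of these comparisons shares the arrays of 1 knock-down. With the methods' t-test, which pairs the arrays of a slide, the members called fell from 8 to 4 for GLE1 against DBP5, from 8 to 7 for GLE1 against IPPK and from 7 to 1, E2F2, for DBP5 against IPPK.

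Of the 10 members, 4 had more than 1 probe, and these gave a check within a gene. The other probes of E2F6 fell after every knock-down as its brightest did, to 0.607, 0.487 and 0.657-fold control for the second probe and 0.646, 0.584 and 0.697-fold for the dimmest (DBP5, GLE1 and IPPK siRNA). The second probe of RBL1 was at 0.305-fold control after GLE1 siRNA, and at 0.907-fold and 1.04-fold after DBP5 and IPPK siRNA (adjusted p = 0.0822 and 0.434 in limma over probes). For E2F3, whose second probe is dim, the DBP5 value was 0.795-fold control with a call (adjusted p = 0.00238), and the GLE1 and IPPK values were 1.02 and 0.983 without one. For E2F7 the second probe rose in each knock-down as well, but to 2.5, 1.78 and 1.74-fold, so its rise was highest after DBP5 and not GLE1 siRNA. The log2 difference of GLE1 from DBP5 was thus 0.29 for the first probe of E2F7 (adjusted p = 0.0791) and -0.49 for the second (adjusted p = 6.76e-05). Which transcripts each probe reads was not tested, so only the direction of E2F7 against control is common to both.

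**Figure D4:**
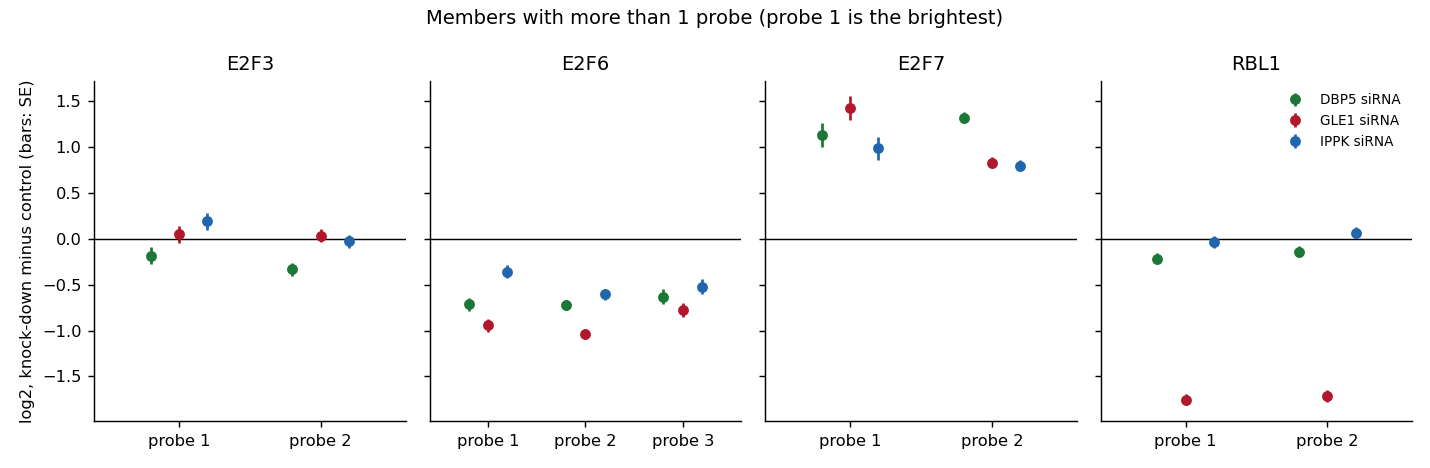
Log2 difference from control siRNA for every probe of the 4 members with more than 1 probe (probe 1 is the brightest), with the SE from limma as bars and green, red and blue for DBP5, GLE1 and IPPK siRNA. All probes of E2F6 lie below 0, those of RBL1 lie far below 0 after GLE1 siRNA, and the GLE1 point of E2F7 drops from 1.42 at probe 1 to 0.83 at probe 2.

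The lists of partners, regulators and targets were written with earlier results of these data known, and their counts are descriptions. They are read beside the shares of all genes given for the members: 27.5%, 31.5% and 28% lower and 26.7%, 30.6% and 27.3% higher after DBP5, GLE1 and IPPK siRNA. The first list held 9 genes: DP partners, MuvB subunits, the pocket protein gene RBL2 and MYBL2. MuvB with RBL2 or RBL1, an E2F and a DP protein forms the complex that silences cell cycle genes. Of these 9, 5 fell and 1 rose after DBP5 siRNA, 9 fell after GLE1 siRNA, and 7 fell after IPPK siRNA, with median log2 differences of -0.29, -0.51 and -0.38, beside -0.02, 0.01 and -0.03 for all genes. LIN52, a MuvB subunit, fell to 0.487, 0.217 and 0.565-fold control after DBP5, GLE1 and IPPK siRNA. TFDP1, the main DP partner, fell to 0.688, 0.636 and 0.676-fold. TFDP2, its relative, was at 1.1-fold after DBP5 siRNA (adjusted p = 0.106) and fell to 0.522 and 0.817-fold after GLE1 and IPPK siRNA. MYBL2, which turns MuvB into an activator, fell to 0.764, 0.78 and 0.61-fold. RBBP4, a histone-binding subunit, fell to 0.581-fold after GLE1 siRNA. Other probes of TFDP1 and RBBP4 were dimmer and differed in size, and that of TFDP1 gave no call after DBP5 siRNA. The dimmest probe of RBBP4 fell to 0.252-fold after DBP5 siRNA (adjusted p = 3.55e-09 in limma over probes) and 0.304-fold after IPPK siRNA. The brightest was at 0.892-fold, without a call, and 0.866-fold. The remaining probes of RBBP4 were at 0.91 and 0.908-fold after DBP5 siRNA, without a call. LIN37 was the gene of this list that rose, to 1.11-fold after DBP5 siRNA (adjusted p = 0.03). RBL2 fell to 0.726-fold after GLE1 siRNA, and was at 1.11 and 1.00-fold after DBP5 and IPPK siRNA without a call.

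The 8 genes of the E2F6 polycomb complex did not all share the direction of E2F6. After DBP5 siRNA 2 fell and 3 rose, after GLE1 siRNA 1 fell and 6 rose, and after IPPK siRNA 3 fell and 3 rose, with medians of 0.16, 0.25 and -0.05. Called in either direction were 5, 7 and 6 of 8, beside 54.3%, 62% and 55.4% of all genes, and are given as a description only. CBX3, a heterochromatin protein, rose to 2.12, 1.56 and 2.18-fold control, and PCGF6, the polycomb ring finger protein of the complex, to 1.51, 1.13 and 1.81-fold. MGA, the scaffold that binds DNA with MAX, fell to 0.849, 0.599 and 0.896-fold. A much dimmer probe of CBX3 was called after DBP5 siRNA alone, and one of MGA in no knock-down. RNF2, a ubiquitin ligase of polycomb, rose to 1.42-fold after GLE1 siRNA and fell to 0.775-fold after IPPK siRNA, and RYBP fell to 0.709 and 0.895-fold after DBP5 and IPPK siRNA and rose to 1.19-fold after GLE1 siRNA. The brightest probe of MAX rose to 1.26, 1.22 and 1.46-fold, but its 2 dimmer probes fell after DBP5 and IPPK siRNA, so the direction of MAX is not settled. It is counted above among the genes that rose in every knock-down, and without it 2, 5 and 2 rose.

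Upstream of RB1 stand the G1 cyclins, their kinases and the kinase inhibitors. Of 16 such genes 15 were tested, since CDKN2B was not above background on any array. After DBP5 siRNA 12 fell and 1 rose, after GLE1 siRNA 11 fell and 4 rose, and after IPPK siRNA 9 fell and 3 rose, with medians of -0.54, -0.70 and -0.42, beside 27.5%, 31.5% and 28% of all genes lower and 26.7%, 30.6% and 27.3% higher. CCNE2, a cyclin E that activates CDK2 and is an E2F target, fell to 0.412, 0.154 and 0.674-fold control. CDK2 fell to 0.418, 0.406 and 0.412-fold. CDC25A, the phosphatase that activates CDK2, fell to 0.442, 0.196 and 0.739-fold. CDK6, a kinase of RB1, fell to 0.38 and 0.361-fold after DBP5 and GLE1 siRNA and rose to 1.35-fold after IPPK siRNA. The inhibitors CDKN2C and CDKN2D fell to 0.718, 0.294 and 0.537-fold and 0.532, 0.412 and 0.365-fold. CDKN1A, which encodes the kinase inhibitor p21, rose in every knock-down, to 1.5, 4.14 and 1.61-fold. Cyclin D2 (CCND2) fell to 0.784-fold after DBP5 siRNA and rose to 3.94 and 2.21-fold after GLE1 and IPPK siRNA, and cyclin D1 (CCND1) rose to 1.56-fold after GLE1 siRNA and fell to 0.625-fold after DBP5 siRNA.

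Downstream, nearly all of 32 textbook E2F targets fell. The lists overlap: the cyclin E genes, CDC25A and MYBL2 are in this list and in a list above, and are counted in each. After DBP5 siRNA 29 fell and 2 rose, after GLE1 siRNA 31 fell and none rose, and after IPPK siRNA 30 fell and 1 rose, with median log2 differences of -0.76, -1.61 and -0.49. GLE1 was below DBP5 for 30 of them, beside 28% of all genes, and below IPPK for 31, beside 30.7%. After DBP5 siRNA the largest falls were those of DNMT1, the maintenance DNA methyltransferase, at 0.395-fold control, MCM10 at 0.401-fold and CCNE2. After GLE1 siRNA they included those of MCM6, a subunit of the replicative helicase, at 0.143-fold and CCNE2. After IPPK siRNA they were MCM5 at 0.509-fold, RRM2, a subunit of ribonucleotide reductase, at 0.513-fold and the thymidine kinase TK1 at 0.545-fold. The replication licensing gene CDC6 went the other way, rising to 2.13 and 2.33-fold after DBP5 and IPPK siRNA, and was at 0.967-fold after GLE1 siRNA (adjusted p = 0.758). Its probe was dim, with a highest log2 intensity of 7.74. UHRF1 rose to 1.14-fold after DBP5 siRNA and fell after GLE1 and IPPK siRNA. Of the target genes with a promoter entry, 16 of 27 (59.3%) held one of the 4 cores.

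**Figure D5:**
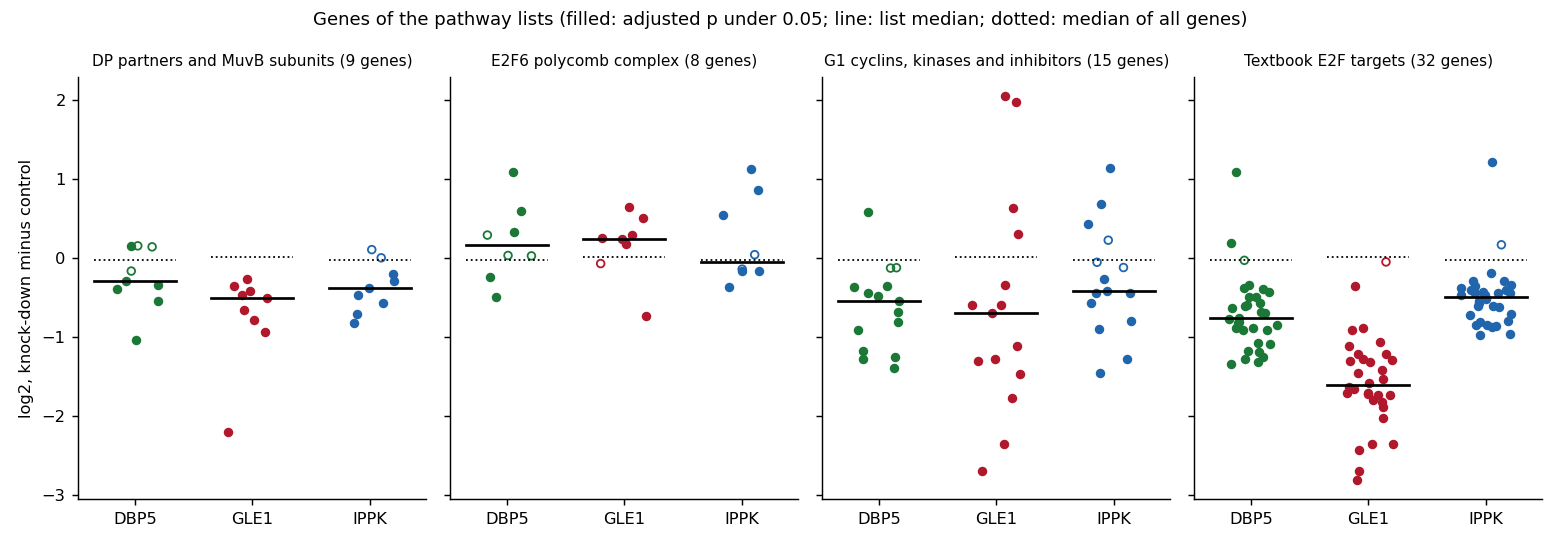
Log2 difference from control siRNA for each gene of 4 pathway lists after DBP5 (green), GLE1 (red) and IPPK siRNA (blue). Filled points passed an adjusted p under 0.05 in limma, solid lines are list medians and dotted lines the median of all genes. The E2F targets lie below 0 with few exceptions, lowest after GLE1 siRNA (median -1.61), and the E2F6 complex lies on both sides of 0.

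The genes whose pattern over the 12 arrays was most like that of E2F2 were KIF15 (Pearson's r = 0.998), PTTG3P (0.998), CDC45 (0.997), SNORD17 (0.996) and GEN1 (0.995), of 18419 other genes well above background on all arrays. For E2F8 they were CDCA7 (0.996), C12orf57 (0.994), POC5 (0.993), FAHD1 (0.993) and FAM110A (0.991). The 12 points of each correlation fall into the 4 siRNA groups, so the values describe a shared order of the group means and carry no p. KIF15, a mitotic kinesin, was at 0.532, 0.338 and 0.600-fold control after DBP5, GLE1 and IPPK siRNA, and CDCA7, a gene of the cell division cycle, at 0.449, 0.274 and 0.493-fold.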

How the data were processed

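The authors deposited the Feature Extraction 10.7.3.1 output of the 12 arrays, which gives a background-subtracted linear intensity for every spot together with quality flags. None of the 43118 spots used was saturated. A second deposited table holds log2 values processed by the authors, whose columns track the log2 median pixel intensity of the spot before any background subtraction (Pearson's r at least 0.9998) and have medians of 7.746 to 7.759. Probe accessions were matched to RefSeq, which named 26449 of 34127 probes (77.5%).

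Spots flagged as outliers were dropped and the log2 intensities of replicate spots averaged. Arrays were then normalized by cyclic loess, which removes any change in the total amount of cytoplasmic mRNA. A gene was represented by its brightest probe and kept if that probe passed the background flag in all 3 arrays of any siRNA. limma 3.58.1 in R 4.3.3 fitted 1 mean per siRNA and gave two-sided tests, adjusted by Benjamini-Hochberg over 20821 genes (25878 probes for tests of single probes). The code was tested on simulated data. Precision is limited by having 3 arrays per siRNA. The replicate numbers in the labels are slides. Same-numbered arrays deviated together (r from 0.318 to 0.513 over 18 pairs, and -0.285 to -0.0495 for other pairs), so the numbers pair the arrays, and the replicate block is given where it changed a call.

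The settings varied were the normalization (75th percentile or quantile), the background (normexp with an offset of 50, or the authors' log2 values), the filter (none, or detection on 12 of 12 arrays), the probe (mean over probes, or single probes), the arrays in the fit (6 only, or 1 array omitted), the replicate block, a two-sided t-test pairing arrays of a slide (named in the study's methods for its experiments in general, not for the arrays, and called the methods' t-test here) and a limit of 1.5-fold. The members and lists were chosen with earlier results of these data known. Genes outside the family were named if they were among the 3 largest falls or rises of their list in a knock-down, or among the 5 most like E2F2 or E2F8. 1 gene that this rule named is not reported here. Promoter sequences are from RefSeq (GRCh38.p14). Probe and protein sequences were not analysed here.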

Additional observations from a re-analysis of the deposited data

How the results depend on the processing

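Every member called against control kept its direction in each alternative run. The number of members called against control stayed within 1.5 times of 9, 8 and 8 under all settings. Between knock-downs it moved: GLE1 against DBP5 gave 8 members with limma, 4 with the methods' t-test and 5 with the limit of 1.5-fold. GLE1 against IPPK gave 8 and, with the limit of 1.5-fold, 4. DBP5 against IPPK gave 7, and 1 with either of these. Among differences called in either setting, the only reversal was E2F7, GLE1 against DBP5, whose second probe gave -0.49 where the first gave 0.29. The rise of E2F7 after GLE1 siRNA was 2.68-fold by the first probe and 1.78-fold by the second. At an unadjusted p under 0.05 the methods' t-test called 7, 8 and 8 members after DBP5, GLE1 and IPPK siRNA, and 6, 8 and 6 after adjustment. After adjustment it did not call E2F4, RB1 or RBL1 after DBP5 siRNA (adjusted p = 0.0908 to 0.251), E2F6 or E2F7 after IPPK siRNA (0.0728 and 0.0536), E2F4, E2F5, E2F6 or RB1 for GLE1 against DBP5 (0.0681 to 0.132), E2F7 for GLE1 against IPPK (0.225), or any limma call but that of E2F2 for DBP5 against IPPK (0.0874 to 0.189). Over all genes that test called 2603 lower and 2443 higher after DBP5 siRNA where limma called 5733 and 5569, 3689 lower after IPPK siRNA (limma 5838), 2791 and 2517 for GLE1 against DBP5 (5838 and 5526) and 2073 and 1877 for DBP5 against IPPK (5220 and 4963). With the replicate block E2F8 gained a call between DBP5 and IPPK (adjusted p = 0.0325), and the block changed no other member call. Leaving out the first DBP5 array cost E2F6 its call between GLE1 and DBP5 (adjusted p = 0.0639) and RB1 its call between DBP5 and IPPK (0.055), which was lost without the first IPPK array too (0.0657), and it gave E2F3 a call after DBP5 siRNA (0.027), as did the mean of its probes (0.00473), and E2F1 one between DBP5 and IPPK (0.0129). E2F3 gained one for GLE1 against IPPK with the 6 arrays alone (0.0364), and after IPPK siRNA with normexp (0.04), with the authors' values (0.0272) and without the second control array (0.0344). RBL1 lost its call between DBP5 and IPPK without any filter (0.0553), with the 6 arrays alone (0.0856), and without DBP5 array 2 or 3 or any IPPK array (0.0803 to 0.123). Of 1050 repeats of the 60 member comparisons, 961 kept their direction and their side of the threshold, 57 lost the call, 22 gained one and 10 changed sign. Of these 10, 9 were called in neither setting: RBL1 after IPPK siRNA, E2F3 after GLE1 or IPPK siRNA and for GLE1 against IPPK, and E2F7 for GLE1 against DBP5 with the mean of its probes (-0.10). The cause of these changes was not tested. The lowest member readings were those of the second probe of RBL1, at 5.84 to 6.01 on the log2 scale after GLE1 siRNA. Whether low signal limited the dim probes was not tested.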

Other observations

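Genes of G2 and M phase, which the MuvB complex with MYBL2 activates, were written as a list beside the family. Of 10 such genes 10 fell after DBP5 siRNA, 10 after GLE1 siRNA and 9 after IPPK siRNA, with median log2 differences of -0.41, -1.40 and -0.56 beside -0.02, 0.01 and -0.03 for all genes. Of all genes 27.5%, 31.5% and 28% were lower. After GLE1 siRNA CENPF, a kinetochore protein, fell to 0.220-fold control, the mitotic kinase AURKA to 0.278-fold and the polo kinase PLK1 to 0.298-fold. After DBP5 siRNA PLK1 fell to 0.680-fold, cyclin B1 (CCNB1) to 0.699-fold and the kinesin KIF20A to 0.730-fold. After IPPK siRNA cyclin B2 (CCNB2) fell to 0.580-fold, KIF20A to 0.601-fold and PLK1 to 0.623-fold. CENPE was at 0.835-fold after IPPK siRNA and was not called (adjusted p = 0.0514 in limma). The probes of CCNB1 disagreed after IPPK siRNA, where the brightest was at 0.761-fold and counted as a fall, while a second, dimmer probe rose to 1.24-fold (adjusted p = 0.0124 in limma over probes). All 10 genes were lower with GLE1 siRNA than with DBP5 siRNA and than with IPPK siRNA, beside 28% and 30.7% of all genes.

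Blood markers were read as a check on the array's floor. Of 4 such markers 2 were detected on all 12 arrays, at summed log2 levels of 7.66 to 8.21 over the siRNA groups.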
